A study of Mus musculus with 10 samples.

Results

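The 31 genes described here encode the elastic fiber and its microfibrils, and they were taken by symbol from a given list of names rather than by a cutoff on expression. All 31 were found among the 55426 genes of the expression table. Their RNA was measured by poly(A) RNA-Seq in 3 control (Prdm16f/f) and 3 *Prdm16*SMKO (Prdm16f/f, SMMHC-CreERT2) thoracic aortas, on a C57BL/6J background, so both groups carried the floxed allele. The *SMMHC* (*Myh11*) promoter restricts the tamoxifen-inducible Cre to smooth muscle, and the Cre transgene lies on the Y chromosome. Per the study's methods, *Prdm16*SMKO mice received tamoxifen at 8 weeks of age, 75 mg/kg/day for 5 days, followed by a 2-week washout. The age at harvest and whether the control mice received tamoxifen are not given in the sources used here. PRDM16 binding was measured by ChIP-Seq in wild-type primary vascular fibroblasts exposed for 48 hours to a lentivirus that carried either Flag-PRDM16 or no insert (vector) and then selected in 2 μg/mL puromycin for 1 week, with 1 anti-Flag library each. The binding data therefore come from overexpressed protein in another cell type than the one in which the gene was deleted, and they have no replicate.

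Elastic fibers give the arterial wall its recoil. Smooth muscle cells secrete tropoelastin, the soluble product of *Eln*, which is laid down on fibrillin microfibrils, guided there by fibulins and joined into an insoluble polymer when lysyl oxidases oxidize its lysines. The same microfibrils carry the microfibril-associated proteins, the EMI-domain proteins, the ADAMTS-like proteins, and the latent TGF-β binding proteins, which hold TGF-β in an inactive complex in the matrix.

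*Prdm16*, the deleted gene, had 56.1, 47.6, and 40.3 TPM (the abundance of a transcript relative to all others in its library, which keeps no read depth) in the control aortas and 23.3, 33.3, and 23.4 TPM in the *Prdm16*SMKO aortas. There was no overlap and the *Prdm16*SMKO mean was 55.6% of the control mean, but the change did not pass the test (log2 fold change −0.85 ± 0.18 SE, adjusted *P* = 0.072, limma). The aortas had between 13331 and 14007 genes at 1 TPM or more, mitochondrial transcripts took 14.7% to 26.5% of the TPM, and the single most abundant gene took 20.2% to 28.2%. All 6 smooth muscle markers were abundant in every aorta, and their summed level was 20649 to 24074 TPM in controls and 13730 to 17733 TPM in *Prdm16*SMKO aortas. None of the 6 passed the test, and their median log2 fold change was −0.40. In 4 the *Prdm16*SMKO values were lower without overlap, as in 14.9% of all genes tested, and *Myh11* and *Smtn* overlapped. *Acta2* was the most abundant of the 6, with means of 11569 TPM in controls and 7512 TPM in *Prdm16*SMKO aortas (64.9% of control). *Myh11* was at 84.9% of control. The study reports that *Prdm16* knockdown lowered the mRNA of contractile markers, *Acta2* among them, in cultured smooth muscle cells. It also cites lower *Acta2* mRNA in *Prdm16*SMKO aortas from the authors' earlier work. In the medial layer of *Prdm16*SMKO thoracic aortas it reports less contractile marker protein. The part of the 6 smooth muscle markers in the changes given below was not tested. In bulk tissue, fewer smooth muscle cells and less RNA per cell cannot be told apart. Adipocyte markers differed by aorta rather than by group, with the highest sums, 1697 and 1200 TPM, in control 2 and *Prdm16*SMKO 3.

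*Eln* and *Lox* fell most among the members that passed the test, *Fbn1* and *Mfap4* fell by less, and no member passed as higher. The study's own list of differentially expressed genes with a PRDM16 promoter peak, from a test its methods do not name, differs. It has *Ltbp1* as upregulated, and *Fbn1*, *Lox*, *Loxl1*, *Loxl2*, *Emilin1*, and *Adamtsl4* as downregulated. The calls given here are those of the limma fit on TPM alone. Of the 31 members, 29 reached the minimum mean of 0.5 TPM and were tested. Of these 29, 4 (13.8%) fell, against 0.683% of the 15668 genes tested that fell and 1.07% that changed in either direction. In 10 of the 29 members (34.5%) every *Prdm16*SMKO value lay below every control value, against 14.9% of all genes tested, and in 0 of them every value lay above, against 4.08%. The median log2 fold change was −0.21 over the members and −0.12 over all genes tested, and 18 of the 29 members lay below the median of all genes. The *P* values were adjusted by the Benjamini-Hochberg method over all genes tested, and they measure only the spread between these samples, since the labels do not say that each aorta came from a separate animal. For a single gene, an exact permutation test of 3 against 3 aortas cannot give a two-sided *P* below 0.1.

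**Figure D1:**
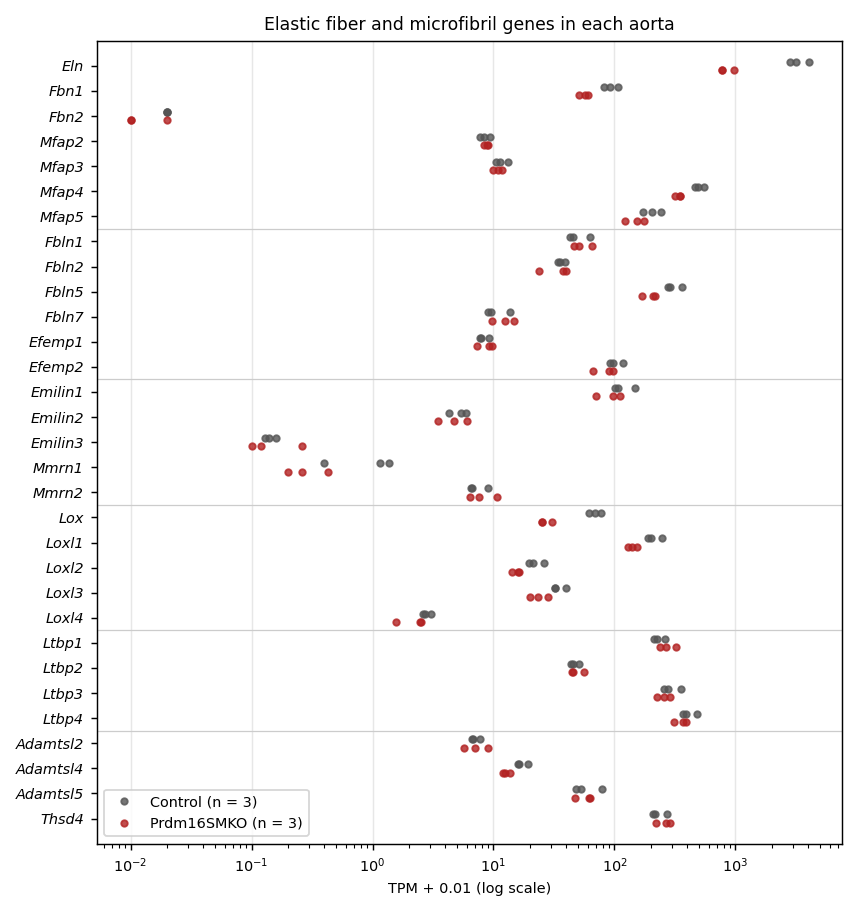
TPM + 0.01 of each of the 31 members in each aorta, on a log axis, with control aortas in gray and *Prdm16*SMKO aortas in red; horizontal lines separate the roles in the order core proteins, fibulins, EMI-domain proteins, lysyl oxidases, latent TGF-β binding proteins, and ADAMTS-like proteins. *Eln* stands above every other member in all 6 aortas, and *Fbn2* and *Emilin3* are near 0.

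*Eln*, which encodes tropoelastin (ENSMUSG00000029675, GRCm38 chr5:134702595-134747323, minus strand), was the most abundant member in every aorta and ranked 26 among all tested genes by its control mean. It had 4018, 3156, and 2850 TPM in the control aortas and 771, 965, and 774 TPM in the *Prdm16*SMKO aortas. The lowest control value was far above the highest *Prdm16*SMKO value, and the *Prdm16*SMKO mean was 25.0% of the control mean. *Eln* fell by 1.99 on the log2 scale (0.154 SE, 95% interval −2.34 to −1.64, adjusted *P* = 0.0012, limma). It passed the test when any 1 aorta was left out, with log2 fold changes of −2.10 to −1.85.

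*Eln* had no PRDM16 peak within 2 kb of its transcription start site (TSS). Its one peak lay in an intron at GRCm38 chr5:134735261-134735484, 12.0 kb downstream of the TSS. Its fold enrichment over local background was 3.03, and only 1.5% of the 11271 PRDM16 peaks had a lower one. Its −log10 q of 1.54 does not meet the q threshold of 0.01 named in the study's methods. At a q of at most 0.01, 22 rather than 23 members had a promoter or body peak, and *Eln* had none. The 101 bases around its summit (GRCm38 chr5:134735213-134735313) are printed, since this is the only PRDM16 peak at the member with the largest fall. They are written 5′ to 3′ on the gene's strand from the GRCm38 reference genome of RefSeq, with the 11 bases centered on the summit in capitals. The summit, at position 134735263, lies at the edge of the peak, so most of the bases printed after it are outside the peak. A run of CA dinucleotides fills the upstream part, and 74.3% of the window is repeat-masked. A window with at least 50% masked bases occurred at 3 of the 50 member peaks and at 5.5% of all peaks.
*Eln* intron: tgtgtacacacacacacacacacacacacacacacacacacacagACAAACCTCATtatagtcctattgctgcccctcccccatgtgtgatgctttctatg

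The microfibril core was carried by *Fbn1*, as *Fbn2* was at or below 0.01 TPM in all 6 aortas and was not tested. *Fbn1*, which encodes fibrillin-1, the main structural protein of adult microfibrils (ENSMUSG00000027204, GRCm38 chr2:125300594-125506438, minus strand), had 107, 81.7, and 91.9 TPM in controls and 57.4, 60.9, and 50.9 TPM in *Prdm16*SMKO aortas, with all controls above. *Fbn1* fell by 0.72 on the log2 scale (0.134 SE, 95% interval −1.03 to −0.42, adjusted *P* = 0.0476, limma), to 60.3% of the control mean. This call lay close to the threshold and was lost when any 1 of the 6 aortas was left out, with adjusted *P* values of 0.0706 to 0.148 in limma, and in the fit with the replicate number as a block (adjusted *P* = 0.0591).

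*Fbn1* had 4 PRDM16 peaks, 1 at its promoter and 3 in introns 133.6, 174.3, and 203.5 kb downstream of the TSS. The promoter peak at chr2:125504925-125506386 was 1462 bp long, had a fold enrichment of 7.68, above 88.2% of all peaks, and was centered 783 bp downstream of the TSS, with its summit in an intron. Its summit window (GRCm38 chr2:125505935-125506035, written as above) is shown because it is the strongest peak at a called member, and unlike the *Eln* window it holds no masked base and has a GC content of 71.3%.
*Fbn1* promoter: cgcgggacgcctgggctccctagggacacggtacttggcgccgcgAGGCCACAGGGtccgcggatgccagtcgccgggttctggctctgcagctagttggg

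*Mfap4*, which encodes a microfibril-associated glycoprotein that binds tropoelastin and fibrillin (ENSMUSG00000042436, GRCm38 chr11:61485431-61488705, plus strand), was the second most abundant member in controls. It had 546, 488, and 463 TPM in controls and 347, 345, and 316 TPM in *Prdm16*SMKO aortas, again without overlap. *Mfap4* fell by 0.57 on the log2 scale (0.107 SE, 95% interval −0.81 to −0.33, adjusted *P* = 0.0497, limma), to 67.3% of the control mean. As for *Fbn1*, leaving out any 1 of the 6 aortas ended the call, with adjusted *P* values of 0.0909 to 0.16 in limma, and so did the replicate block (adjusted *P* = 0.0639). No PRDM16 peak lay within 2 kb of its TSS or in its body, and the nearest was 8.2 kb away.

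The remaining microfibril-associated proteins did not pass the test. *Mfap5*, whose product MAGP-2 binds fibrillin, had 244, 203, and 172 TPM in controls and 153, 174, and 123 TPM in *Prdm16*SMKO aortas. One *Prdm16*SMKO value lay just above the lowest control value (log2 fold change −0.46 ± 0.167 SE, adjusted *P* = 0.294, limma). *Mfap2* and *Mfap3* had means of 8.48 and 11.7 TPM in controls and 8.76 and 10.9 TPM in *Prdm16*SMKO aortas, and their groups overlapped. *Mfap3* had the strongest promoter peak of any member, centered 27 bp upstream of its TSS at a fold enrichment of 12.3. *Mfap5* had a weaker one, with a fold enrichment of 3.87.

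**Figure D2:**
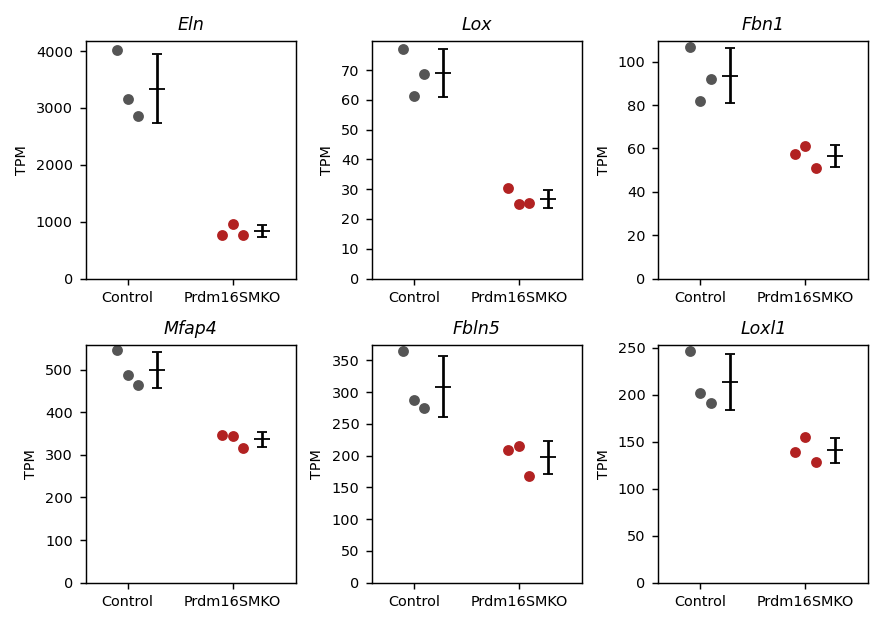
TPM per aorta of *Eln*, *Lox*, *Fbn1*, *Mfap4*, *Fbln5*, and *Loxl1* in control and *Prdm16*SMKO aortas, on linear axes from 0; points are aortas in the order of their number and black bars are the mean ± SD (n = 3). All *Prdm16*SMKO points lie below all control points in each of the 6 panels, and the gap is widest for *Eln* and *Lox*.

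All 5 lysyl oxidase genes had lower TPM in every *Prdm16*SMKO aorta than in any control aorta, and 1 of them, *Lox*, passed the test. Their summed level was 342 ± 44.1 TPM in controls and 209 ± 18.5 TPM in *Prdm16*SMKO aortas (SD, n = 3 each), 61.1% of control. Their median log2 fold change was −0.54. Relative to the 6 smooth muscle markers, *Lox* had a log2 fold change of −0.89. On that scale *Loxl1*, *Loxl2*, and *Loxl3* had −0.12, −0.05, and −0.07 without passing (adjusted *P* = 0.22, 0.694, and 0.505, limma), and *Loxl4* had 0.09. That scaling moved the median of all genes from −0.12 to 0.35, and all 5 genes lay below the median in both fits. Lysyl oxidases are copper-dependent amine oxidases, of which *Lox* and *Loxl1* act on elastin in the arterial wall.

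*Lox* (ENSMUSG00000024529) had 77.2, 61.2, and 68.8 TPM in controls and 30.2, 24.95, and 25.2 TPM in *Prdm16*SMKO aortas. Each *Prdm16*SMKO value was below 50% of the lowest control value, and the *Prdm16*SMKO mean was 38.8% of the control mean. *Lox* fell by 1.36 on the log2 scale (0.137 SE, 95% interval −1.67 to −1.05, adjusted *P* = 0.0037, limma), and without any 1 aorta its log2 fold change was −1.45 to −1.28 with the call kept each time. *Lox* and *Eln* were the members that passed the test in all 17 alternative analyses, against 5 of 17 for *Fbn1* and 4 of 17 for *Mfap4*.

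*Loxl1*, the most abundant of the family, had 247, 202, and 191 TPM in controls and 139, 155, and 128 TPM in *Prdm16*SMKO aortas. Its log2 fold change was −0.59 ± 0.131 SE, and the adjusted *P* value of 0.084 in limma did not pass. It passed in 3 of 17 alternatives, among them median-ratio rescaling (adjusted *P* = 0.0109), and over all 17 its adjusted *P* value ran up to 0.321, the value without the 2 adipocyte-rich aortas. *Loxl2* had 26.2, 19.7, and 21.3 TPM in controls and 16.03, 16.2, and 14.1 TPM in *Prdm16*SMKO aortas (log2 fold change −0.53 ± 0.149 SE, adjusted *P* = 0.173, limma). *Loxl3* had 39.8, 32.0, and 32.3 TPM in controls and 23.4, 27.96, and 20.2 TPM in *Prdm16*SMKO aortas (log2 fold change −0.54 ± 0.158 SE, adjusted *P* = 0.183, limma). These 3 genes had mean levels of 66.0% to 68.9% of control. *Loxl4* was scarce, with 3.04, 2.58, and 2.71 TPM in controls and 2.46, 2.51, and 1.55 TPM in *Prdm16*SMKO aortas, and its groups were separated by less than 0.1 TPM (log2 fold change −0.37 ± 0.26 SE, adjusted *P* = 0.594, limma).

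Every lysyl oxidase gene had at least 1 PRDM16 peak within 2 kb of its TSS, against 43.3% of the tested genes with a RefSeq annotation. *Lox* had 1, with its center 312 bp into the gene and a fold enrichment of 4.92, above 39.1% of all peaks. *Loxl1* (GRCm38 chr9:58287723-58313212, minus strand) had 7 peaks, more than any other member, 2 of them at the promoter and 5 in introns, with fold enrichments of 4.29 to 5.63. *Loxl2* had 3 peaks, 2 of them at the promoter, *Loxl3* had 1 centered 1195 bp upstream of the TSS, and *Loxl4* had 2. None of these 14 peaks exceeded a fold enrichment of 5.63. The summit window of the *Loxl1* peak centered 435 bp downstream of the TSS (GRCm38 chr9:58312474-58312574) is shown because it lies in coding sequence, in the member with the most peaks.
*Loxl1* coding exon: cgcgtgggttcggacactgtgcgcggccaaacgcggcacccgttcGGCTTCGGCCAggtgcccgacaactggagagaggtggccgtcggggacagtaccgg

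Among the 6 fibulin genes, 0 passed the test. *Fbln5* alone had groups that did not overlap, with lower *Prdm16*SMKO values (16.7%, against 14.9% of all genes tested). *Fbln5* encodes fibulin-5, which brings tropoelastin and lysyl oxidases to the microfibril, and had 364, 287, and 275 TPM in controls and 208, 216, and 168 TPM in *Prdm16*SMKO aortas. Its mean was 63.9% of control (log2 fold change −0.64 ± 0.146 SE, adjusted *P* = 0.088, limma). It passed in 3 of 17 alternatives, among them median-ratio rescaling (adjusted *P* = 0.0233). Relative to the smooth muscle markers its log2 fold change was −0.17 (adjusted *P* = 0.123, limma), on a scale where the median of all genes was 0.35. Without the 2 adipocyte-rich aortas the adjusted *P* value of *Fbln5* was 0.292 in limma. *Efemp2*, which encodes fibulin-4, a protein required for lysyl oxidase to act on elastin, had 118, 91.9, and 97.3 TPM in controls and 90.2, 96.9, and 65.9 TPM in *Prdm16*SMKO aortas, and its groups overlapped (log2 fold change −0.29 ± 0.167 SE, adjusted *P* = 0.505, limma). *Fbln1*, *Fbln2*, *Fbln7*, and *Efemp1* had log2 fold changes of 0.11, −0.14, 0.20, and 0.07. PRDM16 peaks lay at the promoters of *Fbln7* and *Efemp2* and only in introns of *Fbln1* (4 peaks) and *Fbln2* (2 peaks, the stronger with a fold enrichment of 10.9), and *Fbln5* and *Efemp1* had 0 peaks.

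The 5 EMI-domain genes gave no call. *Emilin1*, whose product sits at the boundary of elastin and microfibrils, had 148, 100.3, and 107 TPM in controls and 96.4, 112, and 69.8 TPM in *Prdm16*SMKO aortas, with overlap (log2 fold change −0.36 ± 0.203 SE, adjusted *P* = 0.5, limma). *Emilin2* and *Mmrn2* had means of 5.17 and 7.37 TPM in controls and 4.73 and 8.22 TPM in *Prdm16*SMKO aortas. *Mmrn1*, a multimerin of platelets and endothelium, just passed the minimum level at a mean of 0.625 TPM, and its log2 fold change of −1.36 had the widest interval of all members, −2.80 to 0.08. *Emilin3* stayed below the minimum at 0.09 to 0.25 TPM.

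**Figure D3:**
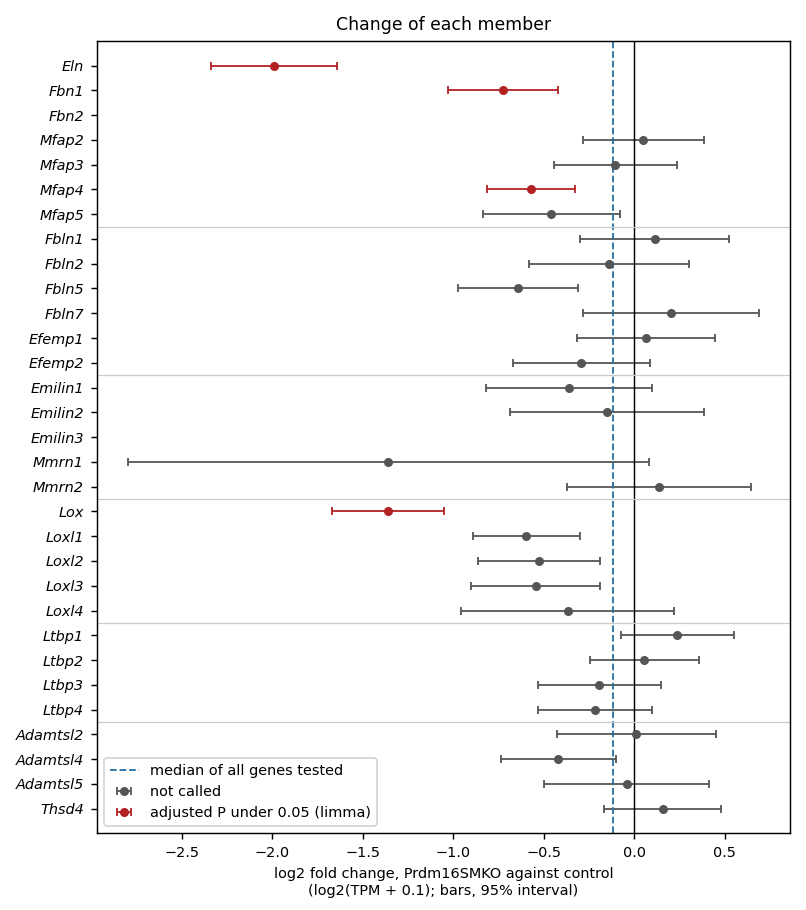
Log2 fold change of *Prdm16*SMKO against control aortas for the 29 tested members, on log2(TPM + 0.1), with 95% intervals from limma (n = 3 each); red marks the 4 members that passed the test, the dashed line is the median of all genes tested (−0.12), and horizontal lines separate the roles as in the plot of levels. The 5 lysyl oxidases all lie left of 0, whereas the latent TGF-β binding proteins lie on both sides of it.

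The latent TGF-β binding proteins were abundant, and 0 of 4 passed the test or had separate groups. *Ltbp1* had 261, 214, and 227 TPM in controls and 267, 324, and 239 TPM in *Prdm16*SMKO aortas. The overlap was small, since 2 of 3 *Prdm16*SMKO values lay above all controls (log2 fold change 0.24 ± 0.138 SE, 95% interval −0.07 to 0.55, adjusted *P* = 0.509, limma). *Ltbp3* had 352, 277, and 255 TPM in controls and 258, 289, and 223 TPM in *Prdm16*SMKO aortas (log2 fold change −0.19 ± 0.15 SE, adjusted *P* = 0.635, limma). *Ltbp4*, which also takes part in elastin assembly with fibulin-5, had 481, 367, and 393 TPM in controls and 365, 393, and 309 TPM in *Prdm16*SMKO aortas (log2 fold change −0.21 ± 0.139 SE, adjusted *P* = 0.558, limma). *Ltbp2*, the one member of this family that does not bind latent TGF-β, averaged 46.6 ± 3.57 TPM in controls and 48.6 ± 6.53 TPM in *Prdm16*SMKO aortas (SD, n = 3 each), with a log2 fold change of 0.06. *Ltbp3* and *Ltbp4* each kept their direction in 16 of 17 alternatives. Both reversed relative to the smooth muscle markers, to 0.28 and 0.26, where the median of all genes was 0.35.

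All 4 of these genes had promoter peaks, against 43.3% of the tested genes with a RefSeq annotation. *Ltbp2* had 6 peaks, and the intronic one at chr12:84846991-84847579, 29.2 kb downstream of the TSS, had the highest fold enrichment of all 50 member peaks, 20.04, above 99.9% of all PRDM16 peaks. Its summit window (GRCm38 chr12:84847129-84847229) is given for that reason, and like the *Eln* window it is a run of CA dinucleotides, with 77.2% of its bases masked. The *Ltbp4* peak centered 1010 bp downstream of a TSS (summit window GRCm38 chr7:27332658-27332758) is shown beside it as a promoter peak of a similar family member that holds no masked base, with a fold enrichment of 6.68. A run of 5 CA dinucleotides on either strand occurred in 2 of the 50 member windows, those of *Eln* and *Ltbp2*, and in 2.0% of all windows. *Eln* and *Ltbp2* thus share this sequence while their peaks lie near the bottom and the top of the range of fold enrichment. The *Eln* and *Ltbp2* windows were chosen after their values were seen.
*Ltbp2* intron: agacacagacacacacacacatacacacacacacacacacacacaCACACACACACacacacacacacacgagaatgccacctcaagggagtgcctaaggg
*Ltbp4* intron: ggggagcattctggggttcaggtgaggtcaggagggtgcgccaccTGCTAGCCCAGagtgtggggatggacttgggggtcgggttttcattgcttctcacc

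The products of the 4 ADAMTS-like genes bind fibrillin and have no protease domain. Of these genes, *Adamtsl4* alone had separate groups, with lower *Prdm16*SMKO values (25.0%, against 14.9% of all genes tested). *Adamtsl4* did not pass the test. It had 19.3, 15.9, and 16.2 TPM in controls and 12.5, 13.7, and 12.0 TPM in *Prdm16*SMKO aortas (log2 fold change −0.42 ± 0.141 SE, adjusted *P* = 0.252, limma). *Thsd4*, which encodes ADAMTSL6, which favors fibrillin-1 assembly, had 272, 214, and 210 TPM in controls and 268, 286, and 221 TPM in *Prdm16*SMKO aortas (log2 fold change 0.16 ± 0.144 SE, adjusted *P* = 0.689, limma). These groups overlapped widely. *Adamtsl2* and *Adamtsl5* had log2 fold changes of 0.01 and −0.04. *Adamtsl4* and *Adamtsl5* had promoter peaks, the latter with a fold enrichment of 11.3, *Thsd4* had 2 intronic peaks, and *Adamtsl2* had none.

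*Eln* made up 51.6% ± 1.46 of the members' summed TPM in controls and 24.8% ± 1.62 in *Prdm16*SMKO aortas (SD, n = 3 each). The summed TPM of the 31 members was 6456 ± 1018 in controls and 3379 ± 363 in *Prdm16*SMKO aortas, 52.3% of control, and without *Eln* it was 3114 ± 418 and 2542 ± 272, 81.6% of control. The TPM ratio of *Eln* to *Fbn1* was 37.6, 38.6, and 31.02 in controls and 13.4, 15.8, and 15.2 in *Prdm16*SMKO aortas. *Eln* was therefore lower relative to fibrillin-1 in every *Prdm16*SMKO aorta, as well as in TPM alone. By level, *Mfap4*, *Ltbp4*, *Fbln5*, *Ltbp3*, *Ltbp1*, and *Thsd4* followed *Eln* in controls, at means of 499 to 232 TPM, and in *Prdm16*SMKO aortas *Ltbp4* (356 ± 42.7 TPM) and *Mfap4* (336 ± 17.3 TPM) changed places within their spread.

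Set against the 6 smooth muscle markers of the same aorta, *Eln* had 16.7%, 14.9%, and 13.8% of their summed TPM in controls and 4.804%, 5.44%, and 5.64% in *Prdm16*SMKO aortas. The *Prdm16*SMKO mean was 35.0% of control on this scale, against 25.0% in TPM. *Lox* was at 54.4% of control, *Fbn1* at 84.1%, and *Mfap4* at 94.0%. In the fit made relative to these markers, *Eln* (log2 fold change −1.51, adjusted *P* = 0.001, limma) and *Lox* (log2 fold change −0.89, adjusted *P* = 0.0071, limma) still fell, whereas *Fbn1* and *Mfap4* did not pass (adjusted *P* = 0.0542 and 0.381, limma). On that scale the median of all genes moved from −0.12 to 0.35. *Acta2*, at 64.9% of control, was the most abundant of the 6 markers, whereas *Myh11* was at 84.9%. The values relative to the markers therefore hold for this sum alone, and a scale without *Acta2* was not tested.

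**Figure D4:**
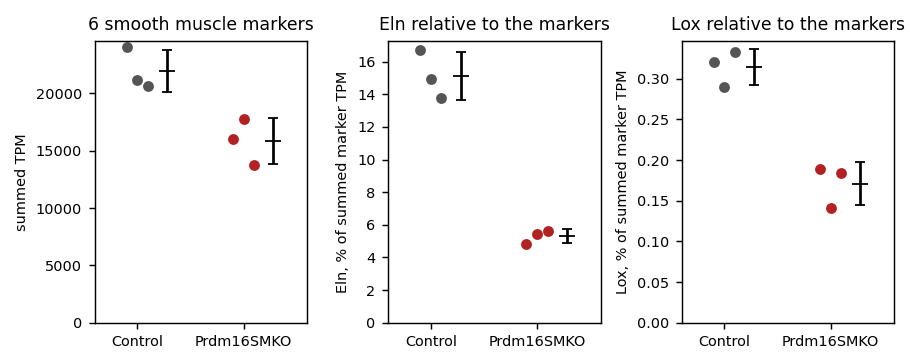
Summed TPM of the 6 smooth muscle markers, and *Eln* and *Lox* as a percentage of that sum, per aorta, on axes from 0; points are aortas and black bars the mean ± SD (n = 3). The markers, *Eln*, and *Lox* are each lower in all 3 *Prdm16*SMKO aortas, and *Eln* falls from 13.8% to 16.7% of the marker sum to 4.804% to 5.64%.

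For 8 adventitial fibroblast markers the summed level was 1397 to 1640 TPM in controls and 1418 to 1862 TPM in *Prdm16*SMKO aortas, and 1 of them, *Col14a1*, a fibril-associated collagen, rose (log2 fold change 0.98, adjusted *P* = 0.02, limma). That call was lost without any 1 of 4 aortas, among them control 2 (adjusted *P* = 0.0778), control 3 (0.0898), *Prdm16*SMKO 1 (0.0741), and *Prdm16*SMKO 2 (0.0642). The 6 endothelial markers summed to 115 to 147 TPM in controls and 84.4 to 189 TPM in *Prdm16*SMKO aortas. The 6 macrophage and leukocyte markers summed to 53.1 to 68.1 and 50.8 to 100.5 TPM. Of these, *Cd74* alone had higher values in all *Prdm16*SMKO aortas, as did 4.08% of all genes tested. It did not pass the test (log2 fold change 1.01, adjusted *P* = 0.126, limma). The 4 blood markers varied widely, with sums of 575 to 2760 TPM in controls and 453 to 1590 TPM in *Prdm16*SMKO aortas. Without control 2 and *Prdm16*SMKO 3, the aortas richest in adipocyte markers, *Eln* and *Lox* still fell (log2 fold changes −1.97 and −1.40), and *Fbn1* and *Mfap4* did not pass (adjusted *P* = 0.119 and 0.251, limma). That subset was chosen after seeing the data.

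Of 24 further genes for assembly, maturation, and matrix partners, 22 were tested and 1 (4.55%, against 1.07% of all genes tested) passed, *Sparc*, a collagen-binding matricellular protein, which fell by 0.70 on the log2 scale (adjusted *P* = 0.039, limma). It had 1698, 1461, and 1455 TPM in controls and 1035, 985, and 827 TPM in *Prdm16*SMKO aortas, and leaving out any 1 aorta ended this call (adjusted *P* = 0.0689 to 0.126, limma). In 8 of these 22 genes (36.4%, against 14.9% of all genes tested and 34.5% of the members) the *Prdm16*SMKO values all lay below the controls, a share no lower than that of the members, and in 1, *Tgfb2*, a TGF-β ligand, they lay above. Among those that did not pass were *Bgn*, the proteoglycan biglycan (log2 fold change −0.63, adjusted *P* = 0.058, limma), and *Fn1*, the fibronectin on which microfibrils assemble (log2 fold change −0.60, adjusted *P* = 0.084, limma). The proprotein convertase *Furin* and the protease enhancer *Pcolce2* also had lower values without overlap and did not pass (log2 fold changes −0.43 and −0.35). The protease *Bmp1*, its enhancer *Pcolce*, and the copper transporter *Atp7a* had groups that overlapped. The study's list of differentially expressed genes with a PRDM16 promoter peak has *Sparc*, *Fn1*, and *Furin* as downregulated and *Tgfb2* as upregulated.

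Of 23 receptor, chaperone, and elastin-degrading genes, 20 were tested and 1 (5.0%, against the same 1.07%) passed, and in 4 of these 20 the *Prdm16*SMKO values all lay below the controls, against the same 14.9%. The gene that passed was *Itgb3*, the β3 subunit of the αvβ3 integrin, a receptor for fibrillin-1, fibronectin, and fibulin-5. It had 75.6, 57.8, and 56.5 TPM in controls and 31.05, 35.6, and 24.3 TPM in *Prdm16*SMKO aortas. The study's list also has this gene as downregulated. *Itgb3* fell by 1.07 on the log2 scale (adjusted *P* = 0.028, limma), and the call was kept without *Prdm16*SMKO 2 and lost without each of the other aortas, where the adjusted *P* value reached 0.0861. Of the elastases, *Mmp12* was listed at 0.8 TPM or less and *Elane* at 0.13 TPM or less, both below the minimum, and *Mmp2*, *Ctss*, *Ctsk*, and *Ctsl* had groups that overlapped. The metalloproteinase inhibitor *Timp1* had higher values in all *Prdm16*SMKO aortas without passing (log2 fold change 0.36), and *Mmp9* had lower ones at 0.40 to 1.53 TPM.

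More members than not had a PRDM16 peak. Of the 31 members, 19 (61.3%) had a peak centered within 2 kb of a TSS, and of the 29 tested in the aorta 18 (62.1%) did, against 43.3% of the 13142 tested genes with a RefSeq annotation. With peaks in the gene body added, 23 of 31 members (74.2%) and 22 of the 29 tested (75.9%) had one, against 46.6%. The median gene span was 29.6 kb for the members and 21.9 kb for these genes, and the part of gene length in these shares was not tested. No member had a peak among the 67 peaks of the vector library. Whether the primary cells expressed fibroblast markers could not be checked, since no RNA of these cells was analysed here.

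The 50 peaks at members were divided evenly, with 25 at promoters and 25 in gene bodies, all 25 of the latter in introns. Of the promoter peaks, 16 (64%) were centered downstream of the TSS. The fold enrichments ran from 3.03 to 20.04 with a median of 4.92, against 5.27 for all PRDM16 peaks. Just inside the 2-kb limit was a *Ltbp2* peak at 1930 bp, and just outside a peak 2041 bp upstream of *Fbln2*. The 8 members with 0 peaks were *Mfap2*, *Mfap4*, *Fbln5*, *Efemp1*, *Emilin3*, *Mmrn1*, *Mmrn2*, and *Adamtsl2*, and 4 more, *Eln*, *Fbln1*, *Fbln2*, and *Thsd4*, had peaks in introns alone.

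**Figure D5:**
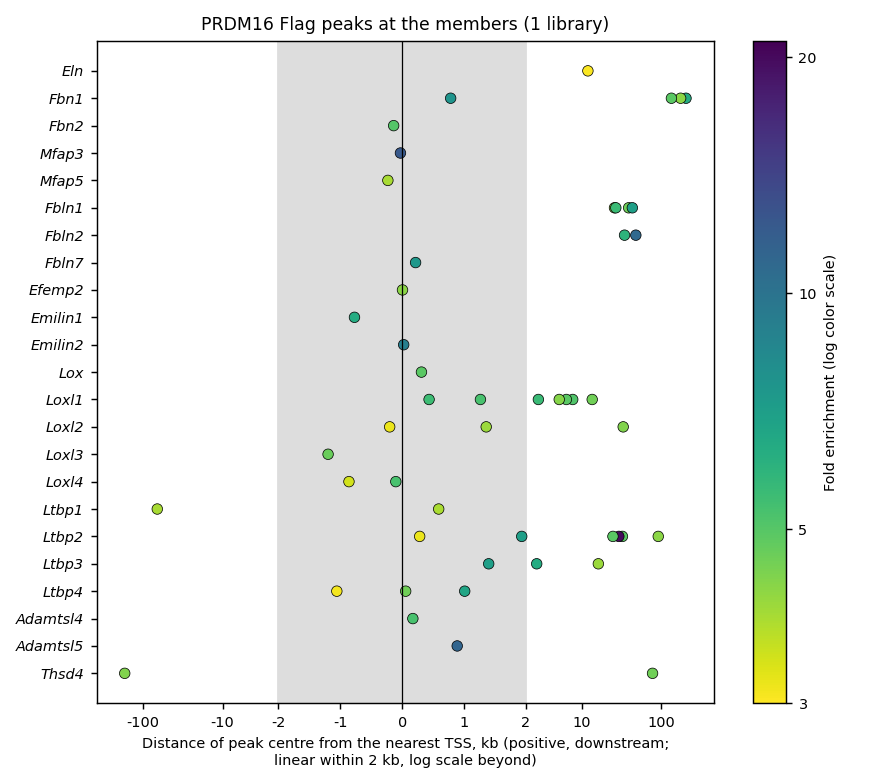
Distance of the 50 PRDM16 peak centers from the nearest TSS for the 23 members with a peak, in kb, positive downstream (linear within 2 kb, shaded, and on a log scale beyond), with color giving the fold enrichment on a log scale (1 anti-Flag library). Promoter peaks sit on both sides of the TSS, *Eln* has a single pale point 12.0 kb downstream, and the darkest point is the *Ltbp2* intron peak.

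Promoter peaks and lower expression did not fall on the same genes throughout. Of the 4 members that fell, *Fbn1* and *Lox* had a promoter peak and *Eln* and *Mfap4* did not. The 18 tested members with a promoter peak had a median log2 fold change of −0.32 with 7 whose groups separated downward, and the 11 without had a median of 0.01 with 3 such members. Over all genes tested, groups separated downward in 14.9%, a smaller share than in either set of members. These values are descriptions, with no test of the difference, and members with a promoter peak had a higher median control level (64.6 against 36.2 TPM).

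The GATA core, the E-box, and the CArG box were sought on both strands in the 101-base windows around the peak summits. The GATA core AGATAA was in 0 of the 50 member windows and in 1.98% of all 11258 windows. The E-box CACGTG, the form bound by clock factors, was in 2 of 50 (4%), those of *Loxl4* and *Adamtsl5*, and in 1.71% of all windows. The CArG box, the element of serum response factor, was in 0 of 50 and in 0.169% of all windows. The median GC content was 59.4% in member windows and 64.4% in all windows.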

How the data were processed

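Samples were grouped by the titles and genotypes in the labels. For RNA-Seq (poly(A) selection, an average of 40000000 read pairs per library per the labels) the deposited values are TPM, made by the authors for each aorta, and the submitters' processing notes name STAR 2.7.8a and RSEM 1.3.3. TPM keep no depth, so no count model and no counting interval was applied. The ChIP-Seq files deposited by the authors are peak lists from MACS2 on reads mapped to GRCm38, with the notes naming Bowtie2 2.3.4.1. The study's methods name a q threshold of 0.01, but the list also holds peaks above it. Of the 50 member peaks, 2 had a q above 0.01, that of *Eln* and 1 of those of *Ltbp4*. The effective genome size was set to that of human, and the control library is not given in the sources used here. The fold enrichment (a ratio over local background) and −log10 q are as deposited by the authors. Pileup, −log10 p, and the IgG libraries were not used here.

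Expression was fitted by limma (version 3.58.1, R 4.3.3; lmFit, eBayes with trend) on log2(TPM + 0.1) for the 15668 genes with a mean of at least 0.5 TPM, with no covariate and a Benjamini-Hochberg threshold of 0.05, so fold changes of low genes are understated. On simulated data of this comparison with 15668 genes, 40 of 100 genes changed 2-fold and 73 of 100 changed 4-fold were recovered, with 8 false calls. Peaks were assigned by their center to genes within 2 kb of a RefSeq TSS or in the gene body. Members and lists were chosen with earlier results of these data known. All members are named, in full where called, without overlap between groups, or above a mean of 100 TPM. Genes of the other lists are named where they passed, and those named without passing were chosen after their values were seen. Sequences were to be shown for up to 4 promoter peaks at called or abundant members, and the *Eln* and *Ltbp2* intron windows were added. A further window is not reported here. Same-numbered aortas were not paired. The correlations of the deviations of same-numbered aortas were −0.0246, −0.07, and −0.00896. Alternatives covered the pseudocount, filter, scaling, trend, replicate block, each aorta left out, and the peak windows and thresholds.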

Additional observations from a re-analysis of the deposited data

How the results depend on the processing

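*Eln* and *Lox* passed the test in all 17 alternatives, with log2 fold changes of −2.10 to −1.51 and −1.45 to −0.89. The 4 members called lower became 2, *Eln* and *Lox*, with a pseudocount of 1, without a TPM filter, without the mean-variance trend, under the replicate block, relative to the smooth muscle markers, without the 2 adipocyte-rich aortas, and without each single aorta (2 to 2). They became 6, with *Fbln5* and *Loxl1* added, after median-ratio rescaling, quantile normalization, or removal of mitochondrial genes and the top gene. With a pseudocount of 0.01 they became 3, as *Mfap4* did not pass (adjusted *P* = 0.0513, limma). The 168 genes called among all tested became 110 without a filter, 413 with median-ratio rescaling (200 higher and 213 lower, against 61 and 107), 392 with quantile normalization (189 higher and 203 lower), 48 without the trend, 372 without mitochondrial genes and the top gene, and 91 to 141 without single aortas. The replicate block gave 184. Median-ratio rescaling moved the median of all genes from −0.12 to 0.00, so members between those values have no stable direction. Relative to the smooth muscle markers, an alternative chosen after seeing the data, 4907 of 15756 genes tested were called (4769 higher and 138 lower). The median of all genes was 0.35 on that scale. Of the 31 members, 7 were called higher (*Ltbp1*, *Ltbp2*, *Ltbp3*, *Ltbp4*, *Fbln1*, *Thsd4*, and *Mfap2*, against 0), a share no larger than that of all genes tested. The log2 fold changes of *Mfap5* (0.0195), *Emilin1* (0.12), *Loxl4* (0.0896), *Ltbp3* (0.28), *Ltbp4* (0.26), and *Adamtsl4* (0.0548) reversed, all to values below that median. The 2 calls in the other elastic fiber lists became 0 without a filter, without the trend, and without the adipocyte-rich aortas, 0 to 1 without single aortas, 5 with median-ratio rescaling, quantile normalization, or without mitochondrial genes and the top gene, and 20 relative to the markers. The 19 members with a promoter peak became 9 with a window from 1 kb upstream to 100 bp downstream, and the 23 with a promoter or body peak became 15 at a q of at most 1e-05. The causes were not tested. The replicate block changed no call of a named member other than *Fbn1* and *Mfap4*. The absence of counts leaves the depth behind each TPM unknown, and the ChIP-Seq data have 1 library per condition.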
